A study of Mus musculus with 19 samples.

Results

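The genes described here encode the nuclear subunits of the 5 complexes of oxidative phosphorylation and the assembly factors of complex I that share their name stem. They were taken by symbol: every gene whose only platform symbol starts with Nduf, Uqcr, Atp5 or Cox followed by a digit from 4 to 8, together with Sdha, Sdhb, Sdhc and Sdhd. This gave 90 of 18193 genes, of which 34 belong to complex I, 4 to complex II, 8 to complex III, 19 to complex IV, 17 to complex V and 8 are assembly factors named Ndufaf. Each gene is represented by its brightest probe set over all 19 arrays. The subunits encoded by mitochondrial DNA fall outside the rule.

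The RNA was that of cortical projection neurons from C57BL/6 mice, marked with fluorescent microspheres taken up by their axons and sorted by fluorescence. Callosal projection neurons (CPN), which join the hemispheres, and corticospinal motor neurons (CSMN), which project to the spinal cord, were taken on embryonic day 18 (E18), and on postnatal days 3, 6 and 14 (P3, P6, P14). Corticotectal projection neurons (CTPN), which project to the tectum, were taken at P14. There were 3 arrays of CSMN at P3 and 2 of each of the other 8 groups, and per the labels the replicates are independent collections. All groups were of 1 strain and received the microspheres, the labels name no transgene or drug, and they name sensorimotor cortex for CPN and CSMN but visual cortex for CTPN.

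Oxidative phosphorylation takes place in the inner mitochondrial membrane. Complex I oxidises NADH and complex II succinate, complex III passes the electrons to cytochrome c, complex IV hands them to oxygen, and complex V makes ATP from the proton gradient that complexes I, III and IV build. Complex II also works in the citric acid cycle and pumps no protons. Neurons draw most of their ATP from this pathway, and several subunits of complexes IV and V exist as isoforms from separate genes.

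The markers of the sorted types separated as labelled: the array medians of 6 CSMN markers lay between 11.1 and 12.3 in CSMN and between 7.82 and 9.12 in CPN, and those of 5 CPN markers between 9.43 and 10.2 in CPN and between 5.91 and 7.61 in CSMN. All values are RMA values on the log2 scale, and array medians ran from 6.42 to 6.62. In CPN at E18 the array medians of 10 progenitor markers (11.1 and 11.4) and of 7 markers of dividing cells (10.7 and 11.1) stood above those of every other group, where the highest were 8.47 and 7.45. Both CSMN E18 arrays and CSMN P14 replicate 2 had a narrower spread of values (5.83 to 6.10 between the 5th and 95th percentiles) than the other arrays (6.36 to 6.81), and the pair of CSMN P14 arrays correlated at 0.904, the lowest value within any group.

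Of the 90 members, 82 lay above 6.62, the highest array median, on every array. Cox7a1, Cox7b2, Cox7c and Ndufb4 lay below it on every array, and Cox4i2, Cox6b2, Cox8b and Ndufb1 on both sides. The highest of the 9 group means was at P14 for 72 members: 31 of 34 in complex I, 2 of 4 in complex II, 6 of 8 in complex III, 16 of 19 in complex IV, 13 of 17 in complex V and 4 of 8 assembly factors. The lowest was at E18 for 64 members and at P6 for 20. Since 3 of the 9 groups are P14, these counts are read against other genes. The highest mean was at P14 for 36.8% of all genes and 32.5% of the bright genes outside the members (mean over 10). The lowest was at E18 for 35.7% and 59.7%. At P6 it was lowest for 22.2% of the members, near the 24.4% of all genes, and for 7.25% of the bright genes. In RNA of many sorted cells, a change in the share of a cell type and a change of RNA per cell cannot be told apart. The range of a member's group means had a median of 1.13 in complex I, 0.92 in complex II, 1.12 in complex III, 0.82 in complex IV and 0.80 in complex V.

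Each member's value was set against its own mean over the 9 groups, and the median of these deviations was taken within each complex on each array. In CPN, complex III stood at -0.16 and -0.18 at E18, -0.32 and -0.49 at P6, then 0.61 and 0.33 at P14. Complex I in CPN followed the same course, with -0.34 and -0.35 at P6 and 0.60 and 0.20 at P14. The CPN P14 arrays were the highest CPN arrays in all 5 complexes, in complex II by little (0.25 and 0.08 against 0.07 for CPN P6 replicate 1). In CSMN, complex I stood at -0.26 and -0.84 at E18 and between -0.04 and 0.31 at P3. The P6 arrays followed with 0.08 and 0.00 and the P14 arrays with 0.36 and 0.29. Here the E18 arrays were the lowest, and the P14 arrays overlapped the highest P3 array. On the same arrays 2109 bright genes outside the members, those with a mean over 10 as 67 of the members also had, gave medians of -0.25 and -0.47 in CSMN at E18 and of 0.20 and -0.36 in CSMN at P14.

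**Figure D1:**
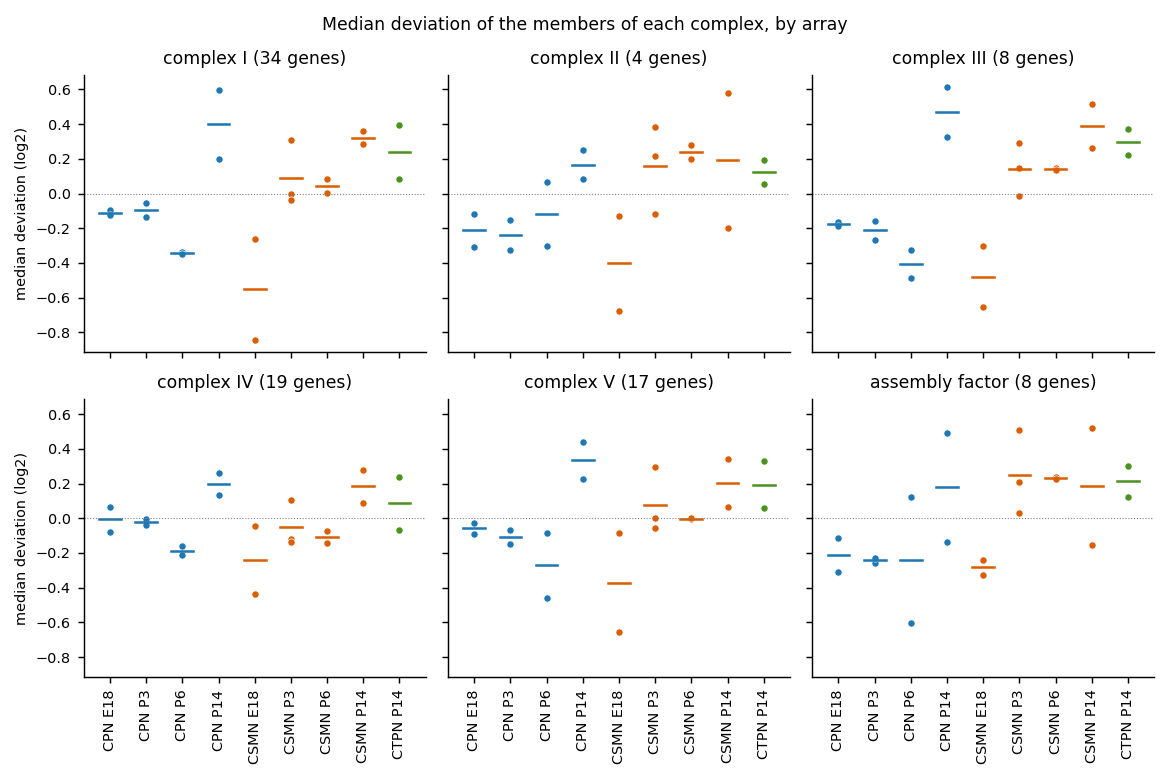
Median deviation of the members of each complex from their own means (log2, vertical axis) on each array, by neuron type and stage; points are arrays, bars are group means. In CPN the P14 points of complex III lie at 0.61 and 0.33, above all earlier CPN points, while in CSMN the lowest points of complex I, -0.26 and -0.84, are those of E18.

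In CPN the median change of the members was -0.03 from E18 to P3, -0.13 from P3 to P6 and 0.61 from P6 to P14, and in CSMN these steps were 0.53, -0.04 and 0.22. From E18 to P3 the bright genes changed by medians of 0.22 in CPN and 0.55 in CSMN, and from P3 to P6 by -0.01 and 0.05. From P6 to P14, as the mean of both types, 27 of 90 members rose and none fell (limma, adjusted p under 0.05), where 5.51% of all genes rose and 7.36% fell. The median difference of the members was 0.40, against 0.08 for all genes and -0.15 for the bright genes, and 82 members had a positive difference. Without any model, 41 members had all 4 P14 arrays above all 4 P6 arrays, a pattern found in 8.39% of all genes, and 1 member had the reverse pattern, found in 7.68%. Within CPN 86 members changed in the positive direction over this step, as did 11098 of 18193 genes, and within CSMN 65, as did 9755 genes. The bright genes changed by medians of -0.01 in CPN and -0.29 in CSMN over the same step. Array medians of 7 interneuron markers were also higher at P14, at 7.28 and 8.41 against 5.92 and 6.71 at P6 in CPN, and at 7.03 and 7.63 against 5.97 and 6.30 in CSMN. Those of 5 endothelial markers were 7.54 and 7.68 against 5.97 and 7.20 in CPN, and 6.76 and 7.34 against 6.37 and 6.55 in CSMN. Among them Cldn5 differed most in CPN (group means of 8.03 at P14 and 6.59 at P6). In CPN Pecam1 read 5.35 and 5.34, Flt1 7.67 and 7.58, Kdr 8.25 and 8.09 and Cdh5 5.21 and 4.95. In CSMN Kdr was lower at P14 (7.92 and 8.01) and the others higher. The part of the interneuron and endothelial markers in the members' differences was not tested.

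In complex I, 12 of 34 members rose from P6 to P14. The largest difference was that of Ndufs5, an accessory subunit whose gene lies at chr4:123712710-123718186 (GRCm38.p6, RefSeq). Its P6 values were 8.45 and 9.06 in CPN and 9.16 and 8.77 in CSMN, and its P14 values were 10.36 and 9.88 in CPN and 10.54 and 10.41 in CSMN. Every P14 array was above every P6 array, with a difference of 1.44 ± 0.24 (SE of the model), or 2.71-fold (limma, adjusted p = 0.0012). Ndufa7, a further accessory subunit, rose by 1.28 ± 0.26 (limma, adjusted p = 0.00468). Ndufs8, which carries iron-sulphur clusters of the electron path, rose by 0.97 ± 0.26, Ndufb10 by 0.90 ± 0.18, and Ndufab1, the mitochondrial acyl carrier protein, by 0.82 ± 0.20.

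Complex III had 4 of 8 members that rose. Uqcr11, its smallest subunit, read 9.89 and 10.03 in CPN and 10.35 and 10.40 in CSMN at P6, and 11.53 and 11.26 in CPN and 11.26 and 11.22 in CSMN at P14. The groups did not overlap, and the difference of 1.15 ± 0.18, or 2.22-fold, had the lowest adjusted p of all members in this step (limma, 0.000753). Uqcr11 kept its call in each of the 26 other settings computed for it, with adjusted p between 0.000238 and 0.0100. Uqcr10 rose by 1.02 ± 0.22, the core protein Uqcrc1 by 0.79 ± 0.24, and Uqcrh, the hinge protein at the docking site of cytochrome c, by 0.68 ± 0.18.

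In complex V, 5 of 17 members rose. Atp5l, subunit g of the membrane part, rose by 1.34 ± 0.32 (limma, adjusted p = 0.0109). Atp5g1 (chr11:96072793-96075694), 1 of 3 genes for subunit c of the rotor ring, read 9.96 and 10.37 in CPN and 11.19 and 10.86 in CSMN at P6, and 11.95 and 11.40 in CPN and 12.02 and 11.56 in CSMN at P14. All P14 arrays were above all P6 arrays, by 1.14 ± 0.24, or 2.20-fold (limma, adjusted p = 0.00499). The other genes for the same subunit did not pass: Atp5g2 differed by 0.33 ± 0.16 and Atp5g3 by 0.09 ± 0.13. Atp5d, the delta subunit of the central stalk, rose by 0.85 ± 0.19, and the small membrane subunits Atp5md and Atp5k by 0.53 ± 0.14 and 0.52 ± 0.15.

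Complex IV had 4 of 19 members that rose: Cox6a2 by 0.95 ± 0.23, Cox8a by 0.84 ± 0.19, Cox7a1 by 0.71 ± 0.14 and Cox6c by 0.64 ± 0.19. Cox6a2 and Cox7a1 are the isoforms of heart and skeletal muscle, and Cox7a1 lay below the highest array median on every array, so the size of its difference also depends on background. Of 6 skeletal muscle markers, 4 or 5 lay below all array medians in each group. In complex II only Sdhb, the iron-sulphur subunit, rose, by 0.55 ± 0.16 (limma, adjusted p = 0.0395). Of 8 assembly factors only Ndufaf8 rose, by 0.84 ± 0.17. The differences between complexes in these counts were not tested.

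All 16 members that rose and have several probe sets showed a positive difference in each of them, though the second probe set of Atp5g1 gave only 0.01. The count of 27 fell to 12 without CPN P14 replicate 1 and to 15 without either CSMN P6 array, was 6 with array weights and 46 with cyclic loess between arrays; under both this and quantile normalization none of the 27 lost its call.

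**Figure D2:**
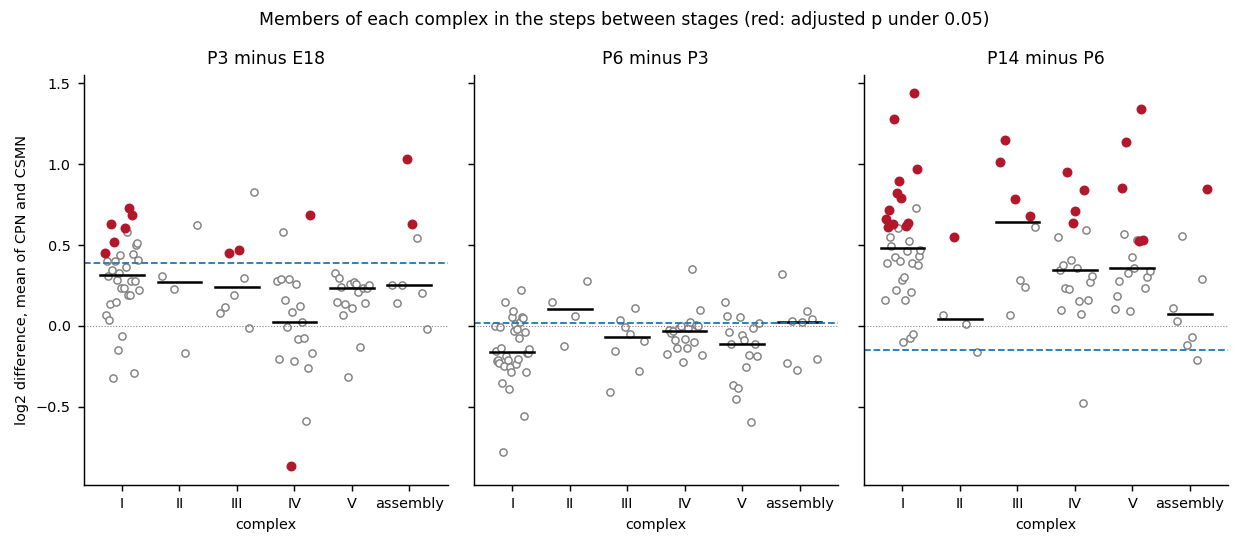
Difference of each member (log2, mean of CPN and CSMN) between successive stages, by complex; red points passed the test, black bars are medians of the complex, and the dashed blue line is the median of the 2109 bright genes. In the step from P6 to P14, 27 points are red and the dashed line lies at -0.15, below the median of every complex.

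**Figure D3:**
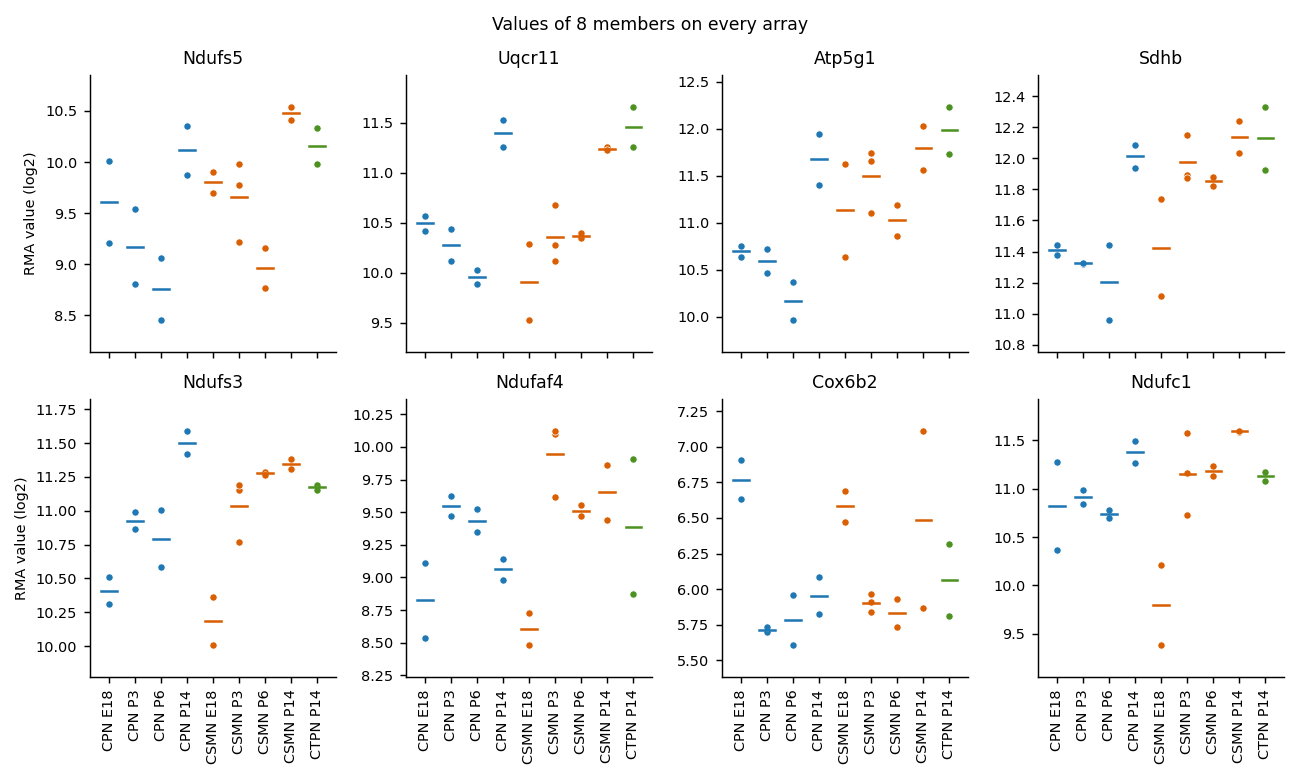
RMA values (log2) of 8 members on every array, by neuron type and stage; points are arrays, bars are group means, and each panel has its own range. Ndufs5, Uqcr11 and Atp5g1 are higher on all P14 arrays of CPN and CSMN than on their P6 arrays, and Ndufs3 and Ndufaf4 are higher on all P3 arrays than on all E18 arrays.

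The start regions of 3 members are shown because they hold letters read by factors known for respiratory genes. NRF1, a regulator of nuclear genes for mitochondrial proteins, reads GCGCATGC, and ETS factors, among them GABP (NRF2), read CCGGAAG. Of 90 members, 74 had an entry in the RefSeq table of GRCm38.p6, which spans 250 bases before to 50 after the start. Uqcr11 and Sdhb rose from P6 to P14, and Ndufaf4 had the largest difference from E18 to P3. Capitals mark the letters on either strand.
Uqcr11, chr10:80406772-80407071, minus strand: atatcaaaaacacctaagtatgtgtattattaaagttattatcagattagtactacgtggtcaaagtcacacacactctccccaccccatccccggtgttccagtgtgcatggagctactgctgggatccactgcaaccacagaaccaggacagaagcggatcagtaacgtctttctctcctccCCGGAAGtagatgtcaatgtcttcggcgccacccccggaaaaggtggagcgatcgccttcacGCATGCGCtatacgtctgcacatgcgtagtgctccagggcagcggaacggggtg
Sdhb, chr4:140961021-140961320, plus strand: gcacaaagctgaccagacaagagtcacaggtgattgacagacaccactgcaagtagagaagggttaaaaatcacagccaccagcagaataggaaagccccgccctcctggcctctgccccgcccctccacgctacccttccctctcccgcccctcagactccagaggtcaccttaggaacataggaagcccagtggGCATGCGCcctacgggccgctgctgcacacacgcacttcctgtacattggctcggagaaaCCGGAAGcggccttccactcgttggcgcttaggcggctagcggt
Ndufaf4, chr4:24897833-24898132, plus strand: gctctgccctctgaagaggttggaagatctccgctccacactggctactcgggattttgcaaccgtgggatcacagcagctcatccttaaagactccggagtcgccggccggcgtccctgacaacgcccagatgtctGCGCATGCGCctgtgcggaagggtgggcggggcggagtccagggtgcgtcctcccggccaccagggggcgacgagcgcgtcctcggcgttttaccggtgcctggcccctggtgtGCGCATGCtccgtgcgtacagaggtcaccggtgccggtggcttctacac
In Uqcr11 the NRF1 letters begin 4 bases and the ETS letters 66 bases before the annotated start, in Sdhb the NRF1 letters 54 bases before it, and in Ndufaf4 NRF1 letters lie 113 and 111 bases before the start, overlapping on opposite strands, and again at base 2 after it. The NRF1 letters were found in 11 of 74 member windows (14.9%) and in 4.70% of 14368 gene windows, the longer palindromic form, with GC added at its end, in 8.11% and 1.75%, and the variant GCGCAGGC in 9.46% and 7.95%. The ETS letters were found in 25.7% and 15.0%, but their longer form CCGGAAGT in 6.76% and 6.65%. AAGATGGCG, read by YY1, was found in 9.46% and 2.54%, its shorter form AAGATGGC in 13.5% and 4.09%, and TCAAGGTCA, read by ERR receptors, in 2.70% and 0.404%. For GGGCGG, read by SP factors, the shares were 47.3% and 57.5%, for CCAAT 43.2% and 42.0%, and for TATAAA 10.8% and 11.5%. Of the 23 members that rose from P6 to P14 and have an entry, 6 held the NRF1 letters, 2 their longer form and 2 the variant, 10 the ETS letters and 3 their longer form, 1 the YY1 letters in either form and 0 the ERR letters. In the same 23 windows GGGCGG was found in 7, CCAAT in 13 and TATAAA in 4. The shorter forms include the longer. These are letter matches on both strands and show no binding.

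From E18 to P3, as the mean of both types, 11 of 90 members rose and 1 fell, where 9.16% of all genes rose and 3.91% fell. The members' median was 0.24, that of all genes -0.05 and that of the bright genes 0.39; under quantile normalization the members' median was 0.06 with 3 higher and 3 lower, and under cyclic loess it turned to -0.11 with 0 higher and 4 lower. The members that rose were 6 of 34 in complex I, 2 of 8 in complex III, 1 of 19 in complex IV and 2 of 8 assembly factors. None of the 11 was among the 27 that rose from P6 to P14, an overlap that was not tested or set against that of all genes.

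Ndufaf4, an assembly factor of complex I, read 8.54 and 9.11 in CPN and 8.72 and 8.48 in CSMN at E18, and 9.47 and 9.62 in CPN and 10.10, 10.12 and 9.62 in CSMN at P3. The stages did not overlap, with a difference of 1.03 ± 0.20, or 2.04-fold (limma, adjusted p = 0.00372). Ndufs3 (chr2:90894627-90904721), a core subunit of complex I, read 10.31 and 10.51 in CPN and 10.37 and 10.01 in CSMN at E18, and 10.86 and 10.99 in CPN and 11.15, 11.19 and 10.77 in CSMN at P3. It too did not overlap and rose by 0.68 ± 0.14 (limma, adjusted p = 0.00435). Both lost their call under cyclic loess, where the differences were 0.78 and 0.33.

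The other members that rose were Ndufc1 (0.73 ± 0.22), Ndufa5 (0.63 ± 0.17), Ndufb6 (0.60 ± 0.16), Ndufa8 (0.52 ± 0.15) and Ndufa1 (0.45 ± 0.14) of complex I. Also called were the assembly factor Ndufaf5 (0.63 ± 0.19) and Ndufa4 (0.69 ± 0.19), first described in complex I and now assigned to complex IV. In complex III Uqcrc2, a core protein, rose by 0.47 ± 0.15 and Uqcrb by 0.45 ± 0.12. Cox6b2, the testis isoform of a complex IV subunit, fell by 0.87 ± 0.21 (limma, adjusted p = 0.0131). It read 6.63 and 6.91 in CPN and 6.47 and 6.69 in CSMN at E18 and between 5.70 and 5.96 on all 5 P3 arrays, on both sides of the array medians. Cox6b2 was not called without CPN E18 replicate 2 or CPN P3 replicate 1. The count of 12 called members was 5 without CPN E18 replicate 1 or 2, 2 and 3 without CPN P3 replicate 1 and 2, 24 and 6 without CSMN E18 replicate 1 and 2, and 4 and 5 without CSMN P3 replicate 1 and 2.

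From P3 to P6, 0 members passed the test (limma), where 0.066% of all genes did (0.0605% higher and 0.0055% lower). At an unadjusted p under 0.05 there were 4, all lower (4.44%, against 3.87% of all genes, 1.63% lower and 2.24% higher): Ndufa7 (-0.78 ± 0.25), Ndufs5 (-0.56 ± 0.23), Ndufb10 (-0.39 ± 0.17) and Atp5g2 (-0.38 ± 0.15). The median of the members was -0.08, with 63 of 90 below 0, and it was -0.13 in CPN and -0.04 in CSMN. Ndufs5, Ndufa7 and Ndufb10 thus had their lowest mean over both types at P6, the stage before the increase given above; these comparisons share the P6 arrays.

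Over the whole series from E18 to P14, 12 members rose in CPN and none fell, where 10.2% of all genes rose and 8.98% fell, and 37 rose in CSMN and none fell, where 9.27% rose and 5.85% fell. The medians of the members were 0.44 in CPN and 0.72 in CSMN, those of the bright genes 0.19 and 0.26; with cyclic loess 7 members were higher and 1 lower in CPN. The CPN members that rose were Cox6a2 (1.34 ± 0.33, 2.53-fold), Ndufaf5 (1.11 ± 0.28), Ndufs3 (1.09 ± 0.20), Ndufa4 (0.99 ± 0.29), Ndufb8 (0.96 ± 0.30), Ndufb2 (0.91 ± 0.26), Uqcr11 (0.90 ± 0.26), Ndufs1 (0.77 ± 0.26), Ndufa8 (0.77 ± 0.22), Ndufa5 (0.76 ± 0.25), Ndufb6 (0.74 ± 0.23) and Atp5md (0.71 ± 0.20). Here 7 of the 12, among them Ndufs1, the largest iron-sulphur subunit, are in complex I, which holds 34 of the 90 members. For Ndufb2 and Ndufb8 a second probe set gave a difference of the other sign, -0.15 and -0.26. Progenitor and dividing cell markers were high in the CPN E18 arrays of this comparison, with the values given above. Array medians of 7 astrocyte markers were also high there (9.54 and 9.80, against at most 7.89 in every other group). Of these, Aldh1l1, Gja1 and Aldoc were higher in CPN at E18 than at P14, and Gja1 is also among the progenitor markers. Gfap, S100b and Slc1a2 were lower at E18 (6.92, 6.43 and 9.67 against 7.03, 6.97 and 12.01). Aqp4 read 7.45 at E18 and 7.41 at P14. The part of all these markers in the differences was not tested.

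In CSMN the members that rose comprised 21 of 34 in complex I, 0 of 4 in complex II, 5 of 8 in complex III, 5 of 19 in complex IV, 4 of 17 in complex V and 2 of 8 assembly factors. Ndufc1, an accessory subunit of complex I, read 10.21 and 9.39 at E18, between 10.73 and 11.58 at P3, 11.24 and 11.14 at P6, then 11.59 and 11.60 at P14. The E18 arrays stood below all other CSMN arrays, and P14 exceeded them by 1.80 ± 0.32, or 3.47-fold (limma, adjusted p = 0.00156). The next largest differences were those of Uqcrq of complex III (1.55 ± 0.39), of Ndufs8 and Ndufs7, neighbouring iron-sulphur subunits of complex I (1.47 ± 0.37 and 1.34 ± 0.33), of Uqcr11 (1.33 ± 0.26) and of Atp5d (1.33 ± 0.27). In complex IV the largest was Ndufa4 (1.12 ± 0.29) and among assembly factors Ndufaf8 (1.10 ± 0.24). Of the 26 members that rose here and have several probe sets, 6 had at least 1 of opposite sign: Atp5a1, Cox5b, Ndufab1, Ndufaf4, Ndufb2 and Uqcrq.

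Called in both types were 8 members, 66.7% of the CPN list and 21.6% of the CSMN list: Atp5md, Ndufa4, Ndufa5, Ndufb2, Ndufb6, Ndufb8, Ndufs3 and Uqcr11. In the test of the difference between the types itself, 0 members passed (limma), where 5.18% of all genes did (3.53% higher and 1.65% lower), and 10 (11.1%) had an unadjusted p under 0.05, as did 19.2% of all genes. The largest of these were Ndufc1 (1.24 ± 0.45, adjusted p = 0.137 by limma) and Ndufa6 (1.17 ± 0.36, adjusted p = 0.0775), with the larger increase in CSMN. The longer list in CSMN is thus not shown to differ from that in CPN. The CPN count was 3 and 4 without CPN E18 replicate 1 and 2, 1 without CPN P14 replicate 1, and 19 without CSMN P14 replicate 1 or 2. The CSMN count was 6 without CSMN E18 replicate 2, 18 with cyclic loess and 0 with array weights. The count for the difference was 1 without CPN E18 replicate 1 or CSMN P14 replicate 2, and 3 without CSMN E18 or P14 replicate 1.

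**Figure D4:**
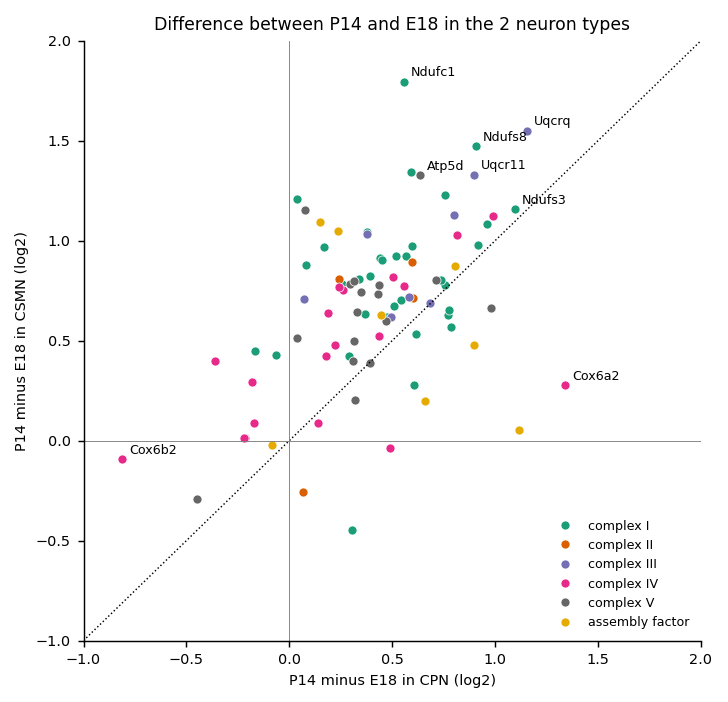
Difference of each member between P14 and E18 in CPN (horizontal axis) and CSMN (vertical axis), both log2; colours give the complex, the dotted line marks equal differences, and named points are members discussed in the text. Ndufc1 has 1.80 in CSMN, Cox6a2 has 1.34 in CPN and 0.28 in CSMN, and 84 of 90 members are above 0 in CSMN.

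With P3 in place of E18 as the early stage, the E18 arrays enter only through the shared estimate of the spread. In CPN Uqcr11 (1.11 ± 0.26) and Ndufaf8 (0.84 ± 0.24) rose, 2 of 90 members where 8.13% of all genes were called, 4.68% higher and 3.45% lower. In CSMN Uqcr11 (0.88 ± 0.23) and Cox7a1 (0.88 ± 0.19) rose, 2 members where 4.45% rose and 8.16% fell. The medians of the members were 0.47 and 0.17, with 85 and 70 of 90 positive, and those of the bright genes 0.00 and -0.27. At an unadjusted p under 0.05, 32 members were higher in CPN (35.6%, against 10.3% of all genes) and 9 in CSMN (10%, against 13.2%). In the test of the difference between the types 0 members passed (limma), where 0.115% of genes did (0.0165% higher and 0.0989% lower), with 2 (2.22%) at an unadjusted p under 0.05, against 9.15% of all genes, and 5 called without CSMN P14 replicate 1. The CPN count was 0 without CPN P3 replicate 2 or CPN P14 replicate 1, 1 without any of CPN E18 replicates 1 and 2, CPN P3 replicate 1, CPN P6 replicates 1 and 2, CSMN P3 replicates 2 and 3, CSMN P6 replicates 1 and 2 and CTPN replicates 1 and 2, and 7 or 9 without a CSMN P14 or a CSMN E18 array. The CSMN count was 1 without CSMN P3 replicate 2 or 3 and 10 without CSMN P14 replicate 1.

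Between CSMN and CPN few members differed. As the mean of 4 stages 3 of 90 were higher in CSMN, where 2.96% of all genes were, and 1 was lower, where 5.34% were (8.29% in all); with quantile normalization the split was 7 and 1 and with cyclic loess 6 and 1. Those higher were Atp5g1 (0.58 ± 0.16, adjusted p = 0.0398 by limma), Ndufaf5 (0.48 ± 0.14) and Ndufa10 (0.39 ± 0.11), and the lower one was Ndufa1 (-0.35 ± 0.10). The median of the members was 0.03, and no member had all CSMN arrays above all CPN arrays (0.159% of all genes) or below them (0.209%). These 4 calls depended on single arrays: 0 members passed without CPN E18 replicate 2, CPN P3 replicate 1 or 2, CPN P14 replicate 2 or CSMN P6 replicate 1 or 2. Leaving out CSMN P3 replicate 1, CPN E18 replicate 1 or CPN P6 replicate 2 left 1 call, and there were 2 without CSMN E18 replicate 2, CSMN P3 replicate 2 or 3 or either CTPN array. There were 7 without CSMN E18 replicate 1 and 12 and 8 without CSMN P14 replicate 1 and 2.

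By stage, the members stood on different sides of 0. At E18, 7 of 90 were lower in CSMN and none higher, where 8.94% of all genes were lower and 3.98% higher; quantile normalization gave 2 lower and 2 higher, and cyclic loess 3 and 2. Of these 7, 6 are accessory subunits of complex I, which holds 34 of the 90 members: Ndufa6 (-1.16 ± 0.25), Ndufc1 (-1.03 ± 0.32), Ndufb11 (-0.97 ± 0.24), Ndufa2 (-0.89 ± 0.22), Ndufa12 (-0.84 ± 0.26) and Ndufa13 (-0.76 ± 0.23). The make-up of this list by complex was not tested. The other was Ndufaf8 (-1.19 ± 0.24, adjusted p = 0.00491 by limma), which read 10.27 and 10.32 in CPN and 9.30 and 8.90 in CSMN. The median of the members was -0.30 and that of the bright genes -0.18. In the same comparison progenitor markers had medians of 11.1 and 11.4 in CPN and 5.92 and 6.13 in CSMN. Among them Nes and Pax6 were lower in CPN (8.56 and 6.38 against 9.15 and 6.41) and the others higher. Astrocyte markers had medians of 9.54 and 9.80 in CPN and 7.04 and 7.32 in CSMN. Of these, Aldh1l1, Slc1a2, Gja1 and Aldoc were higher in CPN. Aqp4, Gfap and S100b were lower in CPN (7.45, 6.92 and 6.43 against 7.83, 7.28 and 6.57). The spread of the CSMN arrays differed too. The part of these markers and of the spread was not tested. The count was 3 and 1 without CPN E18 replicate 1 and 2, and 31 and 2 without CSMN E18 replicate 1 and 2. It was 14 without either CSMN P14 array and 4 without either CPN P3 or CPN P14 array, CSMN P3 replicate 2 or either CSMN P6 array, none of which enter the comparison other than through the shared spread. With array weights it was 0.

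At P3, 0 members passed (limma), where 0.874% of genes did, 7 (7.78%) had an unadjusted p under 0.05 and were higher in CSMN, as did 4.81% of all genes, and the median was 0.21; array weights gave 23 calls. At P6, 0 passed (limma) where 1.07% of genes did (0.671% higher), but 83 of 90 members had a positive difference, with a median of 0.32 against 0.14 in the bright genes, and 62 had both CSMN arrays above both CPN arrays, which 27.8% of all genes had. Here 18 members (20%) had an unadjusted p under 0.05, all higher in CSMN, as did 4.99% of all genes and 8.49% of the bright genes. Among them were Atp5g1 (0.86 ± 0.33) and Uqcrc2 (0.76 ± 0.22), and array weights gave 4 calls. At P6 the array medians of 10 progenitor markers were 8.01 and 8.12 in CSMN and 6.54 and 7.75 in CPN, though Nes and Neurog2 were lower in CSMN. Those of 6 microglia markers were 7.55 and 8.87 in CSMN and 7.34 and 7.64 in CPN. The part of these markers in the members' differences was not tested. At P14 the members' median was -0.09 and 0 passed (limma), where 1.39% of genes did. There 6 (6.67%) had an unadjusted p under 0.05, as did 14.3% of all genes, and 6 were called without CSMN P14 replicate 1. The members' positive median at P3 and P6 kept its sign with quantile normalization (0.14 and 0.22) and cyclic loess (0.11 and 0.17), whereas that at P14 turned to 0.03 with cyclic loess.

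CTPN at P14 were set against both types of the same stage. Against CSMN 0 members passed (limma), where 0.192% of genes did (0.137% higher and 0.055% lower), with 4 (4.44%) at an unadjusted p under 0.05, against 8.81% of all genes, and 5 called without CSMN P14 replicate 1. Against CPN 0 passed (limma) where 1.06% of genes did, with 1 at an unadjusted p under 0.05, against 6.79% of all genes, Cox6a2 (-1.11 ± 0.33, adjusted p = 0.185), and 1 member was called without CSMN P14 replicate 1 or 2. The medians were -0.05 and -0.09. Both comparisons share the CTPN arrays, and type and labelled cortical area change together in both.

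Of the 4 subunits of complex II only Sdhb passed the test in any of the stage comparisons, and the subunits were not tested against each other. Sdhb, which rose from P6 to P14, read between 11.32 and 11.44 in CPN at E18 and P3, 11.44 and 10.96 at P6, then 12.09 and 11.94 at P14. In CSMN its P6 arrays read 11.88 and 11.82 and its P14 arrays 12.24 and 12.04, without overlap in either type. Sdha, the flavoprotein that oxidises succinate, differed from P6 to P14 by 0.07 ± 0.20, and the membrane anchors Sdhc and Sdhd by 0.01 ± 0.13 and -0.16 ± 0.23. From E18 to P14 in CSMN the differences were 0.81 ± 0.28 for Sdha, 0.71 ± 0.23 for Sdhb, -0.26 ± 0.18 for Sdhc and 0.89 ± 0.32 for Sdhd, and in CPN 0.24 ± 0.28, 0.60 ± 0.23, 0.07 ± 0.18 and 0.60 ± 0.32. None passed, the lowest adjusted p being 0.0517 for Sdhb in CSMN (limma). Sdhd had its highest mean in CSMN at P6 (11.31), and Sdhc had means between 9.90 and 10.19. The flat course of Sdhc belongs to its brighter probe set, which ran from 9.81 to 10.31 over the arrays; the other ran from 8.64 to 10.29 and gave 0.59 from E18 to P14 in CSMN.

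The isoform genes of complex IV are given side by side, with no test between them. Cox4i1, the general form of subunit 4, rose from E18 to P14 in CSMN by 0.82 ± 0.26 and differed in CPN by 0.50 ± 0.26, while its hypoxia and lung form Cox4i2 differed by 0.09 ± 0.26 and 0.14 ± 0.26. Cox6b1 rose in CSMN by 0.75 ± 0.23, where Cox6b2 differed by -0.09 ± 0.31. Cox6a2 rose in CPN over the same interval and differed by 0.28 ± 0.33 in CSMN, with a difference between the types of -1.06 ± 0.46 that did not pass (limma, adjusted p = 0.221). Cox6a1, its general form, differed by 0.18 ± 0.20 and 0.43 ± 0.20. Array medians of 7 interneuron markers were 7.28 and 8.41 in CPN at P14 against 6.89 to 7.61 at E18, which overlap, and 5.92 to 6.71 at P6. Npy and Lhx6 were higher at E18 than at P14 (11.32 and 7.25 against 10.09 and 6.73) and the others lower. The part of these markers in the Cox6a2 values was not tested.

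Cox7a1 read between 5.09 and 5.99 on every array except the CSMN P14 pair, which read 6.35 on both. It rose from E18 to P14 in CSMN by 0.64 ± 0.20, and Cox7a2, the general form, differed by 0.52 ± 0.23. Cox8b, a muscle form, read 8.04 on CSMN P14 replicate 2 and 5.90 on replicate 1, and Cox6b2 read 7.11 and 5.86 on the same arrays, so the group means of both rest on replicate 2, the array with the narrow spread. Cox8a rose from P6 to P14 as given above, and Cox8c, the testis form, differed by 0.16 ± 0.16. Cox7a2l, a supercomplex factor, differed by 0.15 ± 0.16, Ndufa4 by 0.27 ± 0.20 and its paralogue Ndufa4l2 by 0.31 ± 0.19, and Cox7b2 by 0.08 ± 0.13 at values near background.

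**Figure D5:**
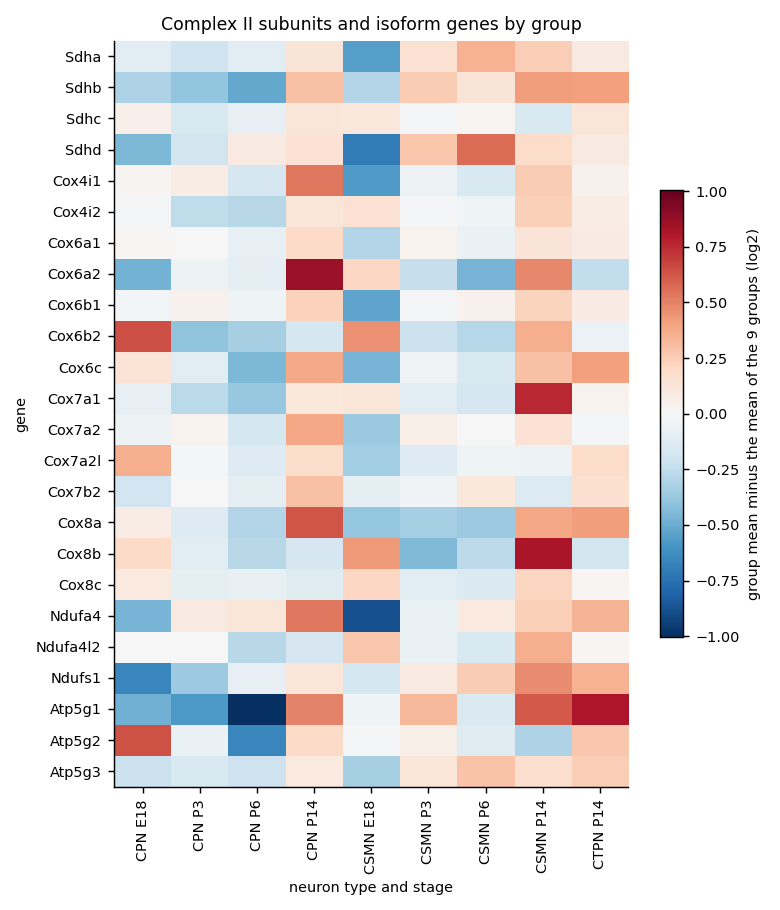
Group means of complex II subunits and isoform genes, each minus the gene's mean over the 9 groups (log2, colour), for each neuron type and stage. Atp5g1 is lowest in CPN at P6 and high at P14 in every type, the probe set used for Sdhc has means of 9.90 to 10.19, and Cox8b and Cox7a1 stand out in CSMN at P14.

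Genes of 4 related lists were counted with the same tests. Of all genes, 10.2% rose and 8.98% fell from E18 to P14 in CPN, and 9.27% and 5.85% in CSMN; from P6 to P14 5.51% rose and 7.36% fell, from E18 to P3 9.16% and 3.91%, and 2.96% were higher and 5.34% lower in CSMN as the mean of 4 stages. Of 21 genes of the citric acid cycle and pyruvate dehydrogenase, 6 rose (28.6%) and 2 fell (9.52%) from E18 to P14 in CPN and 8 rose (38.1%) and 0 fell in CSMN, with list medians of 0.61 and 0.87. In both types these included Dlat (2.04 ± 0.39 and 1.47 ± 0.39), a component of pyruvate dehydrogenase, Idh3a (1.47 ± 0.29 and 1.63 ± 0.29), of isocitrate dehydrogenase, and Ogdh (1.28 ± 0.37 and 1.52 ± 0.37), of oxoglutarate dehydrogenase. From P6 to P14, 3 rose: Pdhx (0.85 ± 0.24), Idh3b (0.75 ± 0.16) and Pdk2 (0.62 ± 0.14), the last not called under cyclic loess (0.47). From E18 to P3, 5 rose and 1 fell, with a list median of 0.15 that turned to -0.03 with quantile normalization and -0.11 with cyclic loess, Dlat having the largest difference (1.06 ± 0.26). Between the types as the mean of 4 stages Fh1, fumarase, was higher in CSMN (0.47 ± 0.10), and 7 of the 21 were with quantile normalization or cyclic loess.

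Of 37 assembly factors and regulators outside the name rule, 4 rose in CPN (10.8%) and 5 in CSMN (13.5%) from E18 to P14, shares near that of all genes in CPN, led by Ttc19, a complex III factor (1.96 ± 0.34 and 1.46 ± 0.34), with list medians of 0.56 and 0.24. With cyclic loess the split was 7 higher and 2 lower in CPN and 5 and 1 in CSMN. From P6 to P14, 2 rose: Cox17, a copper chaperone of complex IV (1.37 ± 0.21), and Higd1a (0.69 ± 0.20); with quantile normalization or cyclic loess 8 rose. Of 25 regulators of respiratory genes and mitochondrial DNA, 2 rose (8%) and 6 fell (24%) from E18 to P14 in CPN. Those with the largest difference fell: Sp1 (-1.70 ± 0.35), Gabpa (-1.69 ± 0.52) and Gabpb2 (-1.61 ± 0.24); Gabpa encodes the DNA-binding subunit of GABP. The 2 that rose were Ppargc1b (1.53 ± 0.29) and Esrra (0.80 ± 0.24), a coactivator and a nuclear receptor of respiratory genes. In CSMN 2 rose (8%) and 0 fell, or 2 and 2 with quantile normalization: Ppargc1a, a coactivator of mitochondrial biogenesis, by 3.53 ± 0.79, and Ppargc1b by 1.50 ± 0.29. From P6 to P14 Ppargc1b (0.95 ± 0.20) and Esrra (0.81 ± 0.17) rose and Sp1 fell by 0.81 ± 0.25. The list median was -0.34 in CPN, whose E18 arrays held the high progenitor markers, and -0.01 in CSMN, where it turned to 0.04 with cyclic loess.

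Of 18 electron carriers and genes of adenine nucleotide exchange, 5 rose in each type (27.8%) from E18 to P14 and 0 fell, with list medians of 0.44 and 0.41; with cyclic loess 3 rose and 1 fell in CPN. Ckmt1, the ubiquitous mitochondrial creatine kinase, had the largest difference of all 4 lists. In CPN it read 6.86 and 6.49 at E18, 8.32 and 8.17 at P3, 8.83 and 8.38 at P6, then 11.06 and 10.53 at P14. In CSMN it read 7.91 and 7.96 at E18, between 9.51 and 9.55 at P3, 10.27 and 9.91 at P6, then 11.44 and 10.84 at P14. Within each type the values of successive stages did not overlap. It rose by 4.12 ± 0.25 in CPN and 3.20 ± 0.25 in CSMN (limma, adjusted p = 4.26e-08 and 1.16e-06), by 1.62 ± 0.17 from P6 to P14, and was higher in CSMN by 1.10 ± 0.12 as the mean of 4 stages. All genes of these lists named here kept their call under quantile normalization, and all but Pdk2 under cyclic loess.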

How the data were processed

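The values used are log2 expression per probe set on Affymetrix whole-genome mouse arrays, deposited by the authors and made with RMA per the submitters' processing notes, which give no version. Per the labels' protocols the RNA was amplified before hybridisation, which can favour abundant transcripts. RMA normalizes arrays to each other, so a difference is relative to the other genes. Of 45101 probe sets, 34945 have 1 symbol, and the brightest per gene gave 18193 genes. For 16 comparisons limma fitted the 9 groups jointly, with 10 residual and 4.46 prior degrees of freedom, two-sided, with Benjamini-Hochberg adjustment over all genes and calls at an adjusted p under 0.05. SE is that of the model. On simulated data for P14 against E18 in CPN with 18193 genes, the model recovered 33% of log2 changes of 1 and 94% of changes of 2, with 7.30% of calls false. The members, lists and rules were chosen with earlier results of these data known.

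In each comparison every called member is named where 12 or fewer were called, otherwise the 6 with the largest difference, the called member with the largest difference in each complex and, always, the Sdh and isoform genes; from other lists up to 3 called genes are named. Genes named beside an unadjusted p were chosen after their values were seen, as were members of a short count outside this rule. Alternatives were quantile and cyclic loess normalization between arrays, a filter on genes below median brightness, averaging a gene's probe sets, leaving out probe sets ending in _x_at or _s_at, array weights, a replicate block, and leaving out arrays. Cyclic loess and leaving out both CSMN P14 arrays together were chosen after seeing the data. Analyses used R 4.3.3, limma 3.58.1 and Python 3.11.15 with pandas 2.3.3 and matplotlib 3.10.9. Probe sets with several symbols were left out of the tests.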

Additional observations from a re-analysis of the deposited data

Results flagged for a closer look

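Among genes of the related lists, Slc25a5, an adenine nucleotide carrier of the inner membrane, differed between the types in its change from E18 to P14 by 1.47 ± 0.29, larger in CSMN (limma, adjusted p = 0.00785). In CPN it read 12.28 and 12.42 at E18 and 12.30 and 12.22 at P14, a difference of -0.09. In CSMN it read 10.96 and 11.31 at E18 and 12.74 and 12.27 at P14, a difference of 1.38. The CSMN E18 arrays were the lowest of these and had the narrow spread of values. The CPN E18 arrays held the high progenitor and dividing cell markers. The part of that spread and of these markers in this difference was not tested. From P3 to P14 the differences were 0.37 in CPN and 0.48 in CSMN, neither past the test (limma, adjusted p = 0.416 and 0.111). In CPN the E18 mean thus lay above the P3 mean. The difference between the types kept its call with quantile normalization (1.17) and cyclic loess (1.36).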

How the results depend on the processing

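All counts are of members called. Between CSMN and CPN, quantile normalization gave 8 over the mean of 4 stages and 4 at E18; it also gave 20 for P14 against E18 in CPN, 1 for its difference between types, 8 and 9 for P14 against P3 in CPN and CSMN, and 6 for P3 against E18. Cyclic loess gave 7 for the mean of 4 stages, 18 for P14 against E18 in CSMN, 1 for the difference between types, 9 and 17 for P14 against P3 in CPN and CSMN, 46 for P14 against P6, and 4, now all lower, for P3 against E18. Array weights gave 0 for the mean of 4 stages and at E18, 23 at P3, 4 at P6, 19 and 0 for P14 against E18 in CPN and CSMN, 58 and 0 for P14 against P3, 6 for P14 against P6 and 1 for CTPN against CPN. The mean of stages without E18 gave 2, leaving out _x_at and _s_at probe sets gave 3 at E18, and the filter on brightness gave 1 for P14 against P3 in CSMN. Without both CSMN P14 arrays the counts were 14 at E18, 19 and 7 for P14 against E18 and against P3 in CPN, and 1 for CTPN against CPN. The cause of these changes was not tested.

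Deviations from the group means correlated between -0.095 and 0.211 for same-numbered arrays of CPN and CSMN. In a group of 2 arrays the deviations mirror each other. These values therefore cannot decide whether the numbers pair the arrays. A replicate block gave 13 at E18 and 8 for P14 against P3 in CPN, and kept the other counts within 1.5 times.

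Leaving out 1 array gave counts of 0 to 12 for the mean of 4 stages (with the majority lower, 2 higher and 5 lower, without CSMN E18 replicate 1, and 1 lower without CSMN P3 replicate 1), 1 to 31 at E18, 0 to 6 at P14, 1 to 19 and 6 to 54 for P14 against E18 in CPN and CSMN, 0 to 3 for the difference between these, 0 to 9 and 1 to 10 for P14 against P3 in CPN and CSMN, 0 to 5 for the difference between these, 2 to 24 for P3 against E18, 12 to 35 for P14 against P6, 0 to 5 for CTPN against CSMN and 0 to 1 for CTPN against CPN.

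Of single members in settings other than leaving out 1 array, 559 results kept their call, 181 lost it and 4 changed sign. Those 4 are P14 against E18 in CSMN for Atp5a1 (-0.0804) and Ndufab1 (-0.0661) with the mean of all probe sets, and for Ndufab1 (-0.674) and Uqcrq (-0.0544) without _x_at and _s_at probe sets. The number of arrays and background at dim probe sets limit the precision.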

Other observations

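Several probe sets with more than 1 symbol, left out of the tests, belong to the same complexes. The brighter set shared by Ndufa11 and Ndufa11b (mean 10.76) had a P14 mean 1.09 above its P6 mean, and the dimmer (mean 6.93) 0.18. The set shared by Ndufs5 and Ndufs5-ps gave 0.96, that shared by Ndufab1 and Ndufab1-ps 0.54 and that shared by Ndufs6 and Ndufs6b 0.49. Sets shared by Ndufa13 and Yjefn3 gave 0.61 and 0.18, and that shared by Ndufb2 and Adck2 0.49. For Ndufb4, whose only probe set with 1 symbol averaged 5.31, a set shared with Ndufb4b and Ndufb4c averaged 10.83 and differed by 0.44 between P6 and P14. These values have no test.

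Both probe sets of Cox7c with 1 symbol were dim, with means of 3.77 and 5.56, and it had a P6 to P14 difference of -0.48 ± 0.21 that did not pass (limma, adjusted p = 0.176).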
